A study of Ovis aries and Bos taurus with 10 samples.

Results

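Translation initiation and elongation factors were followed across all 10 arrays of a study of early sheep folliculogenesis. The members were the probe sets whose gene symbol begins with EIF1 to EIF6, EEF1 or EEF2, with each gene given by its brightest probe set over the captured cells. This gave 50 genes of the 9155 that carry a symbol of their own on the Affymetrix Bovine Genome Array, from 67 of its 24016 probe sets that are not controls. The symbols also took in close partners of the factors, such as the eIF2 kinases and the enzymes that modify elongation factors.

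Protein synthesis begins when initiation factors bring the initiator tRNA and the small ribosomal subunit to the cap of an mRNA and scan to the start codon. The eIF4 proteins bind the cap and unwind the leader, eIF3 bridges the mRNA and the small subunit, eIF2 delivers the initiator tRNA, and eIF2B recharges eIF2 with GTP. Elongation factors then bring each aminoacyl tRNA to the ribosome and move it along. A growing oocyte stores mRNA and ribosomes for the embryo and controls much of its protein output at the cap, while granulosa cells (GC) pass from a flat resting layer to dividing layers around it.

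Oocytes and GC were isolated by laser capture microdissection (LCM) from new-born lambs under 1 day old, with no treatment. Each compartment had 1 array from primordial (PDO, PDG), 1 from primary (PMO, PMG) and 1 from secondary follicles (SECO, SECG). The RNA of an array was pooled from 2 animals for primordial, 4 for primary and 2 for secondary follicles, and was amplified in 2 rounds and labelled with the Arcturus turbo kit (protocol P3). The other 4 arrays held whole fetal ovary. Ovine ovary at 132 days post coitum was labelled by P3, by P2 (2 rounds of amplification with Affymetrix labelling) and by P1 (the standard Affymetrix protocol, with 1 round), and bovine ovary at 8 months by P1. With 1 array for each condition, compartments were compared over the 3 stages and the whole ovaries have no replicate. Sheep RNA was hybridised to probes designed on cattle sequence, so a signal depends both on the transcript and on the match of its probes, and no level is set here against that of another gene.

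The arrays were scaled alike, with median signals of 25.2 to 40.9, and between 38 and 47 of the 50 factors were detected on each. The captured material was checked with marker lists. The oocyte list (8 of 10 genes on the array) summed to 2723 to 7920 on the oocyte arrays and 3053 to 5627 on the GC arrays, so the 2 compartments overlapped, and SECO had the lowest sum. Of 8 GC markers on the array, AMH, KITLG, FOXL2 and FSHR were detected on none of the 6 captured arrays, and the list summed to 217 to 750 in oocytes and 763 to 2008 in GC. The 6 stroma markers summed to 4369 to 15750 in oocytes and 12700 to 47050 in GC, and the 4 smooth muscle markers, of which TAGLN was detected on none, to 462 to 570 in oocytes and 1112 to 2421 in GC. SECO stood apart in HBB, a haemoglobin chain, with a signal of 3838 against 2.00 to 398 on the other captured arrays. Of the 3 red blood cell markers HBB alone was detected on captured arrays, as HBA and ALAS2 were detected on none. Fewer cells of a type and less RNA per cell cannot be told apart in such pools.

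Of the 50 factors, 44 were detected on at least 1 captured array and 37 on all 6. EEF1A2 (the elongation factor of muscle and nerve), EEF1AKMT3 and EEF2KMT (methyltransferases of elongation factors), EIF2A (an alternative carrier of initiator tRNA), EIF2AK3 (the kinase PERK) and EIF4EBP1 (a repressor of the cap-binding protein) were detected on none. Their highest signals on the captured arrays were 9.70 for EEF1A2, 39.8 for EEF1AKMT3, 38.2 for EEF2KMT, 19.2 for EIF2A, 16.2 for EIF2AK3 and 17.8 for EIF4EBP1. Of these 6, EIF2AK3 was detected on the ovine and bovine P1 arrays, at 75.4 and 53.0, EIF2A and EIF4EBP1 on the bovine P1 array, at 79.5 and 77.7, EEF1AKMT3 on the ovine P1 array, at 33.4, and EEF1A2 and EEF2KMT on no array. Detection on all 6 captured arrays was reached by 11 of 12 genes of the eIF3 complex, 7 of 8 start codon and initiator tRNA factors, 9 of 11 cap and helicase factors and 5 of 7 elongation factors, but by 0 of 3 eIF2 kinases.

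Between oocytes and GC no factor passed the test. The differences were small, from -0.73 to 0.92 on the log2 scale of signal + 20, and 28 of 44 were under 0.5 in size, against SEs of 0.30 to 0.46. Of the 44, 17 were higher in oocytes at all 3 stages, 7 were lower at all 3 and 20 had mixed signs. Over all 11642 probe sets, 17.7% were higher and 17.1% lower at all 3 stages. In 10 factors every oocyte signal lay above every GC signal, and in 5 below, where 7.28% and 7.71% of all probe sets did so, or 8.04% and 7.18% when each gene was given by its brightest probe set. EIF2AK1, among the 10, and EIF2AK2, among the 5, were below the detection limit on most captured arrays. The remaining 29 overlapped. The median difference was 0.13 over the factors and 0.02 over all probe sets.

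The test was the moderated linear model of limma with stage and compartment, n = 3 arrays for each compartment, with Benjamini-Hochberg adjustment. It called 0 of 44 factors and 0% of all probe sets, and the smallest adjusted p was 0.414 among the factors and 0.406 among all. With an intensity trend in the variance it called 0 factors and 0.0859% of all probe sets. At an unadjusted threshold of 0.05 it took EIF1B, EIF3D and EIF4E2 as higher in oocytes and 0 factors as lower, against 5.53% and 5.59% of all probe sets. The smooth muscle sums given above separated the compartments. The stroma sum was lower in oocytes in primordial and primary follicles, but was 15690 in SECO against 12700 in SECG. Most of it came from COL1A2 (8749 in SECO, 7052 in SECG) and COL3A1 (4883 in SECO, 3346 in SECG). COL1A1 and LUM were also higher in SECO, and DCN (1848 in SECO, 2113 in SECG) and PDGFRA (41.2 in SECO, 53.6 in SECG) were lower. The part of the smooth muscle and stroma lists in the differences of the factors was not tested.

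**Figure D1:**
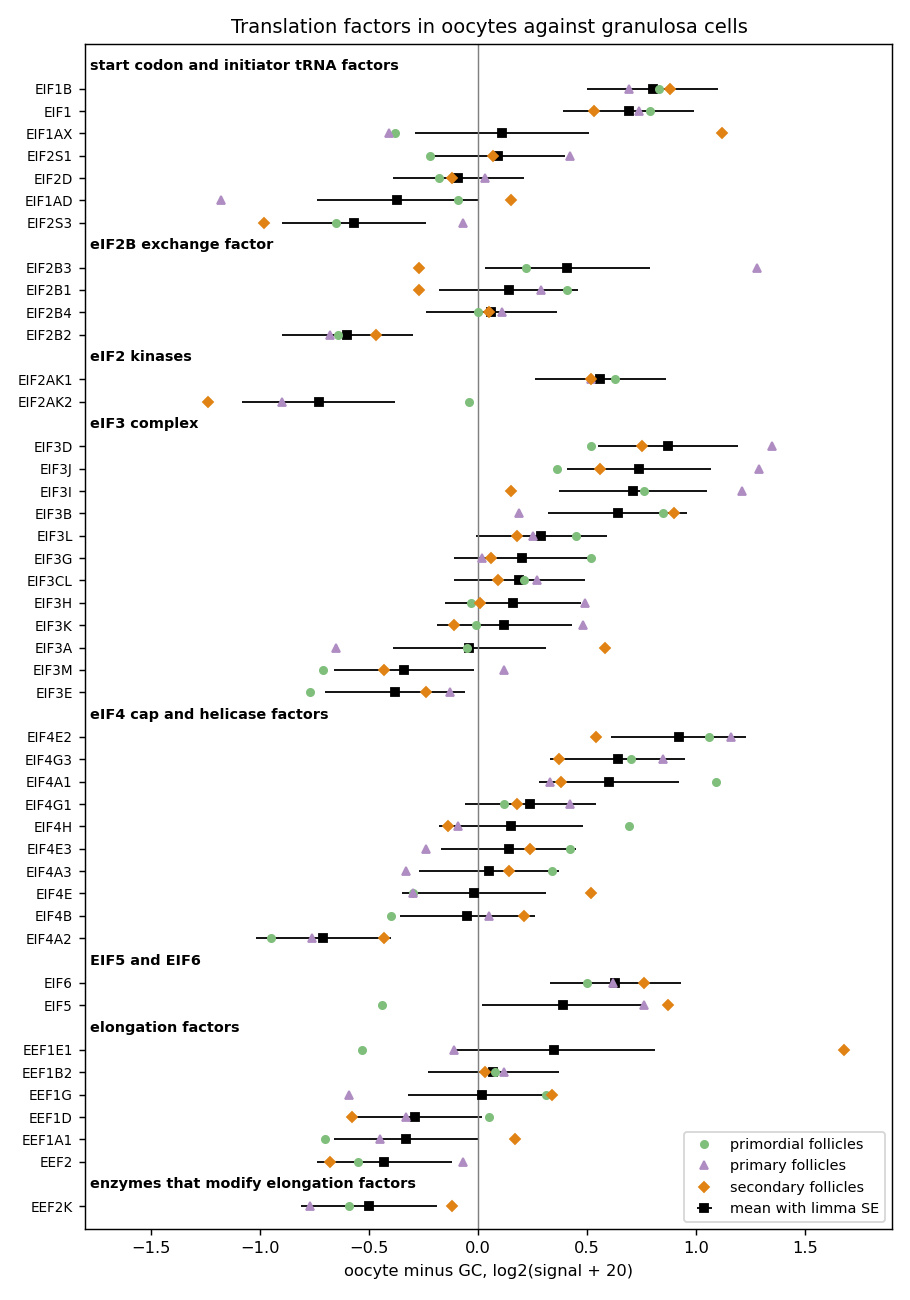
Each row is a factor detected on at least 1 captured array, grouped by role. Coloured points give the oocyte minus GC difference in log2(signal + 20) in primordial, primary and secondary follicles, and the black square and bar the mean with its limma SE. Means run from -0.73 for EIF2AK2 to 0.92 for EIF4E2, and 20 factors have points on both sides of 0.

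Among the start codon factors, EIF1 and EIF1B, the paralogous proteins that guard the choice of start codon, were higher in oocytes. EIF1 gave 8927, 6900 and 5507 in PDO, PMO and SECO, against 5143, 4115 and 3807 in PDG, PMG and SECG. EIF1B gave 1611, 1169 and 1043 in PDO, PMO and SECO, against 900, 715 and 559 in PDG, PMG and SECG. The compartments did not overlap for either gene, and in each compartment the secondary array was the lowest. The difference was 0.69 ± 0.30 for EIF1 and 0.80 ± 0.30 for EIF1B (limma SE, n = 3 arrays each, adjusted p = 0.453 and 0.422).

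EIF2S3, the gamma subunit of eIF2 that binds GTP and initiator tRNA, ran the other way. It gave 2226, 2438 and 1654 in PDO, PMO and SECO, against 3501, 2565 and 3281 in PDG, PMG and SECG. All oocyte signals were below all GC signals, with a gap of only 2438 to 2565 between the nearest arrays, and the difference was -0.57 ± 0.33. A second detected probe set of EIF2S3 also gave a lower mean in oocytes, at -0.94. EIF2S1, the alpha subunit that the stress kinases phosphorylate, gave 646, 881 and 813 in PDO, PMO and SECO, against 756, 652 and 774 in PDG, PMG and SECG, and these overlapped.

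EIF1AX, which works beside EIF1 on the scanning subunit, stood out on 1 array. It gave 2937, 3192 and 8734 in PDO, PMO and SECO, against 3818, 4237 and 4010 in PDG, PMG and SECG. SECO was the highest and the other 2 oocyte arrays the lowest, so that the sign was mixed. EIF1AD and EIF2D also had mixed signs, at -0.37 ± 0.37 and -0.09 ± 0.30.

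The eIF2B subunits, which exchange GDP for GTP on eIF2, did not move as a unit. EIF2B2 gave 243, 163 and 259 in PDO, PMO and SECO, against 388, 273 and 367 in PDG, PMG and SECG. Its compartments did not overlap and the difference was -0.60 ± 0.30. EIF2B1 (0.14 ± 0.32), EIF2B3 (0.41 ± 0.38) and EIF2B4 (0.06 ± 0.30) overlapped between compartments. EIF2B3 was below the detection limit on both primary arrays, at 59.7 in PMO and 12.8 in PMG, and its differences at the other stages were 0.22 and -0.27.

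The eIF2 kinases, which shut initiation down under stress, were near the limit of detection. EIF2AK1, the haem-regulated kinase, gave 50.1, 71.7 and 69.8 in PDO, PMO and SECO, against 25.3, 43.7 and 42.4 in PDG, PMG and SECG. This probe set was detected on SECO alone and is given no fold. A second EIF2AK1 probe set was detected on PMO alone, at 97.8, and gave 14.7 on SECO. EIF2AK2, the kinase activated by double-stranded RNA, gave 45.7, 19.7 and 14.1 in PDO, PMO and SECO, against 47.4, 53.9 and 60.8 in PDG, PMG and SECG. It was detected on PDG and SECG only and is likewise given no fold.

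Of the 12 genes of the eIF3 complex, the scaffold between mRNA and small subunit, 7 were higher in oocytes at all 3 stages, 1 was lower at all 3 and 4 were mixed. In 5 (EIF3B, EIF3CL, EIF3D, EIF3G and EIF3J) the compartments did not overlap, and in none of the 12 did all oocyte signals lie below. Among all probe sets 17.7% were higher and 17.1% lower at all 3 stages, and 7.28% lay wholly above and 7.71% wholly below. The median difference of the class was 0.19.

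EIF3D, a subunit that can bind caps itself, gave 377, 363 and 266 in PDO, PMO and SECO, against 257, 130 and 150 in PDG, PMG and SECG. The lowest oocyte array and the highest GC array were close, and the difference was 0.87 ± 0.32 (adjusted p = 0.420). EIF3J, a loosely bound subunit at the mRNA entry channel, gave 585, 679 and 526 in PDO, PMO and SECO, against 452, 265 and 350 in PDG, PMG and SECG, a difference of 0.74 ± 0.33. Both genes had their largest gap in primary follicles, at 1.35 and 1.29.

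EIF3B, a core subunit that organises the scaffold, gave 98.0, 80.1 and 89.8 in PDO, PMO and SECO, against 45.4, 68.0 and 38.9 in PDG, PMG and SECG. It was detected on all 3 oocyte arrays and on none of the GC arrays, though PDG was only just under its limit of 45.8. As a mean over the 3 stages, this makes EIF3B at least 1.45-fold higher in oocytes. Its measured difference was 0.64 ± 0.32, with 0.19 in primary follicles. EIF3I gave 1582, 1655 and 864 in PDO, PMO and SECO, against 924, 702 and 775 in PDG, PMG and SECG. SECO overlapped the GC arrays, while the difference was 0.71 ± 0.34.

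EIF3CL and EIF3G were separated by compartment but by little. EIF3CL gave 8140, 9159 and 7791 in PDO, PMO and SECO, against 7029, 7603 and 7305 in PDG, PMG and SECG (0.19 ± 0.30). No member carried the symbol EIF3C, and whether the EIF3CL probe set reads EIF3C was not analysed here. EIF3G gave 3193, 2967 and 2989 in PDO, PMO and SECO, against 2226, 2934 and 2860 in PDG, PMG and SECG (0.20 ± 0.31). EIF3E, a subunit of the eIF3 octamer, was the single eIF3 gene lower at all 3 stages (-0.38 ± 0.32). It gave 3202, 2670 and 3598 in PDO, PMO and SECO, against 5477, 2916 and 4256 in PDG, PMG and SECG. EIF3A, EIF3H, EIF3K and EIF3M were mixed, from -0.34 to 0.16, and EIF3L was higher at each stage with overlapping compartments (0.29 ± 0.30).

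The cap-binding and helicase factors held the members with the highest and nearly the lowest difference. EIF4E2, a cap-binding protein that mostly represses translation, gave 2050, 1609 and 839 in PDO, PMO and SECO, against 970, 707 and 570 in PDG, PMG and SECG. The GC value of primordial follicles was above that of SECO, so the compartments overlapped, while the difference was the largest of all 44 at 0.92 ± 0.31 (adjusted p = 0.414). EIF4E, the main cap-binding protein, gave 188, 162 and 197 in PDO, PMO and SECO, against 236, 205 and 131 in PDG, PMG and SECG (-0.02 ± 0.33), and EIF4E3 also overlapped (0.14 ± 0.31).

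The helicases EIF4A1 and EIF4A2, which unwind mRNA leaders, had opposite signs. EIF4A1 gave 711, 429 and 1211 in PDO, PMO and SECO, against 323, 336 and 926 in PDG, PMG and SECG, higher at each stage at 0.60 ± 0.32 but overlapping. EIF4A2 gave 261, 275 and 387 in PDO, PMO and SECO, against 525, 479 and 530 in PDG, PMG and SECG, with no overlap and a difference of -0.71 ± 0.31 (adjusted p = 0.450). EIF4A3, the helicase of the exon junction complex, had 2 probe sets detected on all 6 arrays, and they gave 0.05 and 0.79.

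Of the scaffolds that join cap, helicase and eIF3, EIF4G3 gave 385, 332 and 375 in PDO, PMO and SECO, against 229, 176 and 286 in PDG, PMG and SECG. Its compartments did not overlap, and the difference was 0.64 ± 0.31. EIF4G1 was slightly higher in oocytes at each stage (0.24 ± 0.30). The helicase cofactors EIF4B and EIF4H overlapped, at -0.05 ± 0.31 and 0.15 ± 0.33.

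EIF6, which keeps the large ribosomal subunit from joining too early, gave 1049, 892 and 982 in PDO, PMO and SECO, against 737, 572 and 573 in PDG, PMG and SECG. There was no overlap, and the difference was 0.63 ± 0.30. EIF5, which triggers GTP hydrolysis by eIF2 at the start codon, was mixed, with 751, 589 and 1227 in PDO, PMO and SECO, against 1027, 341 and 663 in PDG, PMG and SECG (0.39 ± 0.37).

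Of the 6 elongation factors detected, 1 was higher and 1 lower in oocytes at all 3 stages, against 17.7% and 17.1% of all probe sets. None was separated by compartment, against 7.28% of all probe sets wholly above and 7.71% wholly below, and the median was -0.13. EEF1A1, which carries aminoacyl tRNA to the ribosome, gave 8180, 8303 and 13903 in PDO, PMO and SECO, against 13283, 11370 and 12389 in PDG, PMG and SECG (-0.33 ± 0.33). SECO was the highest of the 6 and the other oocyte arrays the lowest. EEF2, the translocase, was lower in oocytes at all 3 stages, with 450, 430 and 540 in PDO, PMO and SECO, against 666, 453 and 876 in PDG, PMG and SECG (-0.43 ± 0.31).

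EEF1B2, EEF1D and EEF1G, the subunits of the exchange factor that recharges EEF1A1, overlapped between compartments at 0.07 ± 0.30, -0.29 ± 0.31 and 0.02 ± 0.34. EEF1E1, which belongs to the tRNA synthetase complex, was high on SECO alone, at 56.7, 46.9 and 191 in PDO, PMO and SECO, against 90.7, 52.1 and 45.7 in PDG, PMG and SECG. EEF2K, the kinase that inhibits EEF2, gave 63.8, 38.7 and 69.0 in PDO, PMO and SECO, against 106, 80.2 and 76.9 in PDG, PMG and SECG. All oocyte signals were below all GC signals, and the difference was -0.50 ± 0.31.

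**Figure D2:**
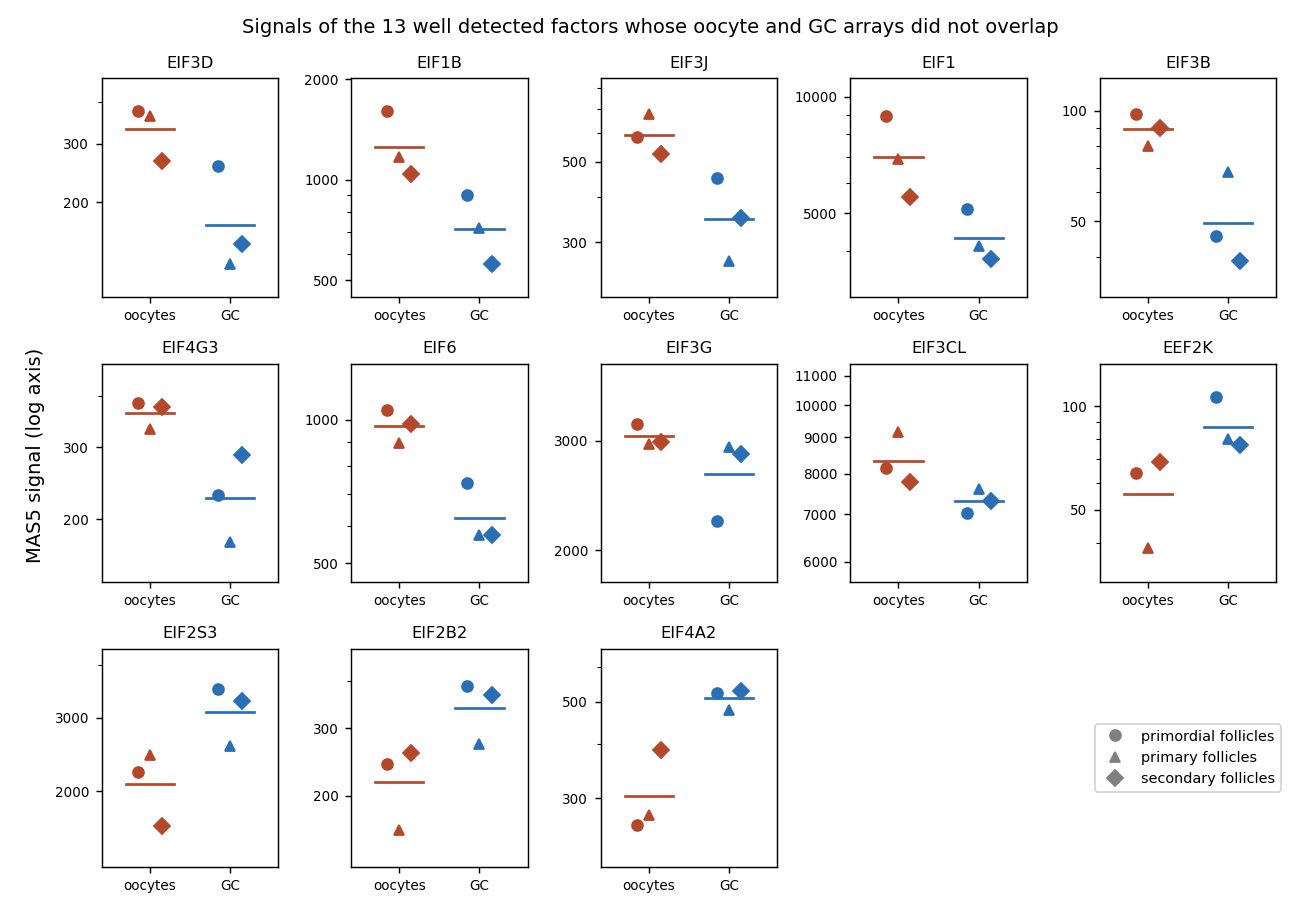
Panels give the MAS5 signal, on log axes of different range, of the 13 factors that were detected on all 3 arrays of a compartment and did not overlap between compartments. Points are arrays, with the stage as the shape, and lines are geometric means. 9 panels have all oocyte points above the GC points and the panels of EEF2K, EIF2S3, EIF2B2 and EIF4A2 have them below, and in EIF3G and EIF3D the nearest points of the compartments are close.

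The counts were taken again without each stage, which loosens the requirement for every gene. Without the primordial stage 21 of 44 factors were higher and 9 lower in oocytes at both remaining stages, against 27.4% and 26.4% of all probe sets. Without the primary stage 20 of 44 were higher and 10 lower, against 28.1% and 26.5%, and without the secondary stage 18 of 43 were higher and 13 lower, against 30.6% and 32%. Factors with all oocyte signals above and with all below the GC signals numbered 16 and 5 without the primordial stage (17.7% and 17.5% of all probe sets), 11 and 7 without the primary stage (17.3% and 16.7%) and 14 and 11 without the secondary stage (21.7% and 22.9%). Without the SECO array alone they numbered 12 and 8 (16.1% and 15.7%).

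By stage, 2 factors of the cap complex were at least 2-fold higher in secondary than in primordial follicles in both compartments, and 0 were at least 2-fold lower. Over all probe sets 3.19% were at least 2-fold higher in both and 1.66% lower. EIF4G1, the main scaffold of the cap complex, gave 69.8, 77.1 and 390 in PDO, PMO and SECO, against 62.8, 52.7 and 342 in PDG, PMG and SECG. In both compartments the primordial and primary arrays were alike and the secondary array was high. The primordial and primary signals were near the detection limits. PMG was below its limit of 72.1, and PMO just above its limit of 74.2. The difference of secondary minus primordial follicles was 2.16 ± 0.37, or 4.46-fold (limma, 2 arrays each, adjusted p = 0.238), with 2.19 in oocytes and 2.13 in GC.

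EIF4H, which stimulates the helicase, gave 273, 299 and 859 in PDO, PMO and SECO, against 161, 321 and 948 in PDG, PMG and SECG. Its secondary arrays were the highest of each compartment, and the difference was 2.00 ± 0.40, or 4.01-fold (adjusted p = 0.238). This rested on the brightest of 3 detected probe sets. The others gave -0.19 and 0.87, and the mean over the probe sets gave 0.90. EIF4A1 was likewise highest on the secondary arrays in both compartments, with a difference of 1.11 ± 0.40 (2.16-fold), and the primary array was the lowest in oocytes. EEF1D, a subunit of the elongation exchange factor, was also highest on both secondary arrays, at 870, 778 and 1357 in PDO, PMO and SECO, against 841, 985 and 2032 in PDG, PMG and SECG (0.94 ± 0.38).

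The largest negative stage differences with the same sign in both compartments were those of EIF4E2, EIF1B, EIF3M and EIF3D. EIF4E2 and EIF1B, whose signals were given with the compartments, were lower at each later stage in oocytes and in GC, with differences of -1.01 ± 0.38 and -0.64 ± 0.37. A second EIF4E2 probe set, detected on 1 captured array, had the opposite sign at 0.47, and the mean over the probe sets gave -0.27. EIF3M gave 3133, 3459 and 2255 in PDO, PMO and SECO, against 5143, 3184 and 3041 in PDG, PMG and SECG (-0.61 ± 0.40), and EIF3D differed by -0.59 ± 0.40.

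By role, all 8 genes of the eIF3 complex that had the same sign in both compartments were lower in secondary follicles, and the other 4 had opposite signs. The elongation factors with the same sign, 4 of 6, were all higher, and so were 6 of the 7 cap and helicase factors with the same sign. Over all 44 factors 15 were higher and 15 lower in both compartments, against 31.9% and 26.7% of all probe sets, and the median difference was 0.00 over the factors and 0.05 over all probe sets.

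The limma model called 0 of 44 factors and 0% of all probe sets between secondary and primordial follicles (2 arrays each, smallest adjusted p = 0.238 in both sets). At an unadjusted threshold of 0.05 it took EEF1D, EIF4A1, EIF4G1 and EIF4H as higher and EIF4E2 as lower, against 6.49% and 4.9% of all probe sets. EIF4G1 and EIF4H passed the adjusted threshold with a constant of 50 added to the signals, where 37 of 11642 probe sets did so (0.318%), and with an intensity trend in the variance, where 67 did so (0.576%).

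Cell type markers also differed by stage. The stroma list summed to 15750, 4369 and 15690 in PDO, PMO and SECO and to 47050, 29510 and 12700 in PDG, PMG and SECG, and the endothelium list, of which VWF and KDR were detected on none of the captured arrays, to 404, 165 and 304 in PDO, PMO and SECO and to 1045, 359 and 139 in PDG, PMG and SECG. The GC list was higher at each later stage, at 217, 510 and 750 in PDO, PMO and SECO and 763, 1049 and 2008 in PDG, PMG and SECG, while the oocyte list summed to 7735, 7920 and 2723 in PDO, PMO and SECO and to 3053, 5627 and 3448 in PDG, PMG and SECG. HBB was 3838 on SECO and 16.3 on PDO, and 69.4 on SECG and 51.0 on PDG, while HBA and ALAS2 were detected on none of the captured arrays. The part of these markers in the stage differences of the factors was not tested.

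**Figure D3:**
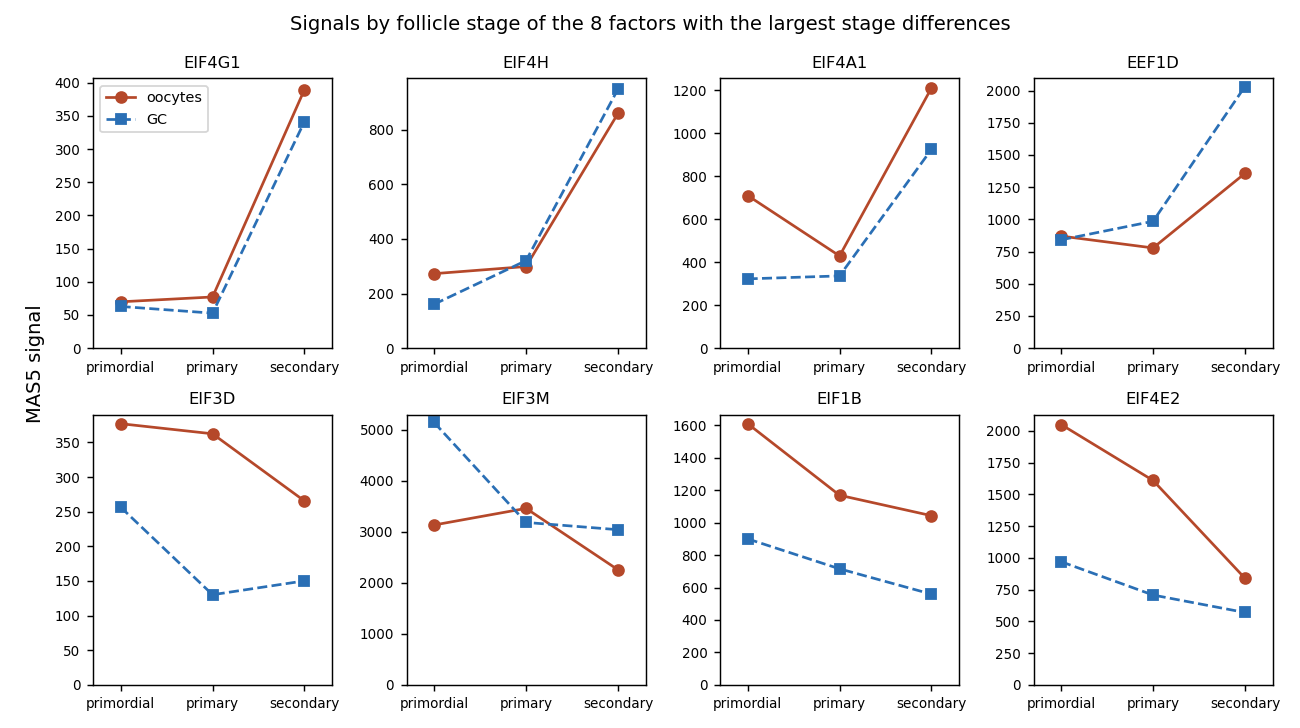
Panels give the MAS5 signal, on linear axes from 0, of the 4 factors with the largest positive and the 4 with the largest negative stage difference of one sign in both compartments. Each point is 1 array, with oocytes as solid and GC as dashed lines. EIF4G1 reaches 390 in SECO and 342 in SECG and stays under 80 on the 4 earlier arrays, while EIF4E2 and EIF1B are lower at each later stage in both compartments.

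The captured cells were set beside whole ovine fetal ovary labelled by the same protocol, P3. Age, tissue make-up and the amount of RNA differ between them and cannot be told apart. Of the 44 factors, 8 were above the whole ovary on all 6 captured arrays, 6 were below on all 6 and 30 lay on both sides, where 19.5% of all probe sets were above and 18.1% below. With quantile normalization 8 were above and 11 below. The shares of all probe sets under that normalization were not worked out, and their median difference was 0.02, against 0.05 without it. With 1 array of whole ovary there is no test.

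EIF4G1 was the lowest relative to the whole ovary, at 52.7 to 390 on the captured arrays and 543 in whole ovary, a mean difference of -2.00. EEF1G, the scaffold of the elongation exchange factor, gave 3079 to 13287 on the captured arrays and 17990 in whole ovary. EIF6 gave 572 to 1049 on the captured arrays and 1809 in whole ovary, and EIF3D 130 to 377 on the captured arrays and 542 in whole ovary. EIF1AD and EIF3G were the other 2 below on all 6.

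Above the whole ovary on every captured array were EEF1B2, EEF1E1, EIF1AX, EIF2AK1, EIF2S1, EIF3M, EIF4B and EIF4E. EIF2S1 gave 646 to 881 on the captured arrays and 363 in whole ovary, a mean 2.01-fold higher. EEF1B2 gave 21398 to 36244 on the captured arrays and 16519 in whole ovary, EIF3M 2255 to 5143 on the captured arrays and 1846 in whole ovary, and EIF1AX 2937 to 8734 on the captured arrays and 2459 in whole ovary. EIF4B and EIF4E were in this group by near ties, with lowest captured signals of 1253 against 1243 in whole ovary for EIF4B and 130.8 against 130.6 in whole ovary for EIF4E. The member probe sets of EEF1E1 and EIF2AK1 were not detected in whole ovary under P3. On the captured arrays EEF1E1 was detected on 3 and EIF2AK1 on 1, so neither is given a fold. A second EIF2AK1 probe set was detected in whole ovary, at 46.0, and gave 9.06 to 97.8 on the captured arrays.

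The 3 labelling protocols were compared on ovine fetal ovary at 132 days post coitum to ask how the amplification used for captured cells changes the signals. By their measured signals, 10 of 45 factors were at least 2-fold higher and 10 at least 2-fold lower under P3 than under P1, against 14.2% and 25.7% of all probe sets. The 10 lower include EIF2AK1 and EIF2AK3, which were undetected under P3, and with signals under the detection limit set to it 8 were lower, against 15.7% of all probe sets, and 10 higher, against 12.1%. Under P2, 8 of 45 were at least 2-fold higher and 6 at least 2-fold lower than under P1, against 12.9% and 22.9%, or 8 and 5 with such signals set to the limit, against 11% and 13.3%. The median difference from P1 was 0.33 for P3 and 0.09 for P2 over the factors, and -0.22 and -0.09 over all probe sets. Both comparisons use the same P1 array, and there are no replicates. The medians of all probe sets depended on the scaling. With quantile normalization they were -0.04 for P3 minus P1 and 0.08 for the ovine minus bovine difference, and the differences given are not corrected for them.

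EIF4A2 was the lowest relative to P1. It gave 392 under P3 and 592 under P2, against 5264 under P1, which was 12.8-fold lower under P3 and 8.63-fold lower under P2. EIF4E gave 131 under P3 and 231 under P2, against 573 under P1, or 3.94-fold lower under P3. EEF2 gave 781 under P3 and 547 under P2, against 2461 under P1, or 3.10-fold lower under P3. EIF3A, the largest eIF3 subunit, gave 240 under P3 and 365 under P2, against 608 under P1. EIF2AK3 was detected under P1 alone, at 0.50 under P3 and 3.60 under P2, against 75.4 under P1, and was at least 1.53-fold lower under P3.

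In the other direction, EIF3CL gave 8391 under P3 and 2618 under P2, against 966 under P1, which was 8.53-fold higher under P3 and 2.68-fold higher under P2. EIF3G gave 5518 under P3 and 3874 under P2, against 1364 under P1, a difference of 2.00 for P3. EIF4E2 gave 1164 under P3 and 712 under P2, against 317 under P1, or 3.51-fold higher under P3. EEF1B2 gave 16519 under P3 and 13894 under P2, against 5194 under P1, or 3.17-fold higher under P3.

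Probe sets of the same gene did not move alike. The array has control probe sets of EEF1A1 and EIF4E, named for the 5′ end, middle and 3′ end of the transcript, which were not counted as members. The 5′ control of EEF1A1 gave 833 under P3 and 380 under P2, against 13731 under P1, which was 16.1-fold lower under P3, while the member probe set of EEF1A1 gave 12769 under P3 and 9626 under P2, against 14555 under P1. For EIF4E the 5′ control differed by -2.52, the middle control by -2.73 and the 3′ control by -0.69 between P3 and P1, and the member probe set by -1.98. The position of the other members' probes along their transcripts was not analysed here, and its part in their differences was not tested. For EIF4A3, the member probe set was higher under P3 by 0.94 and the other detected probe set was lower by 1.39.

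**Figure D4:**
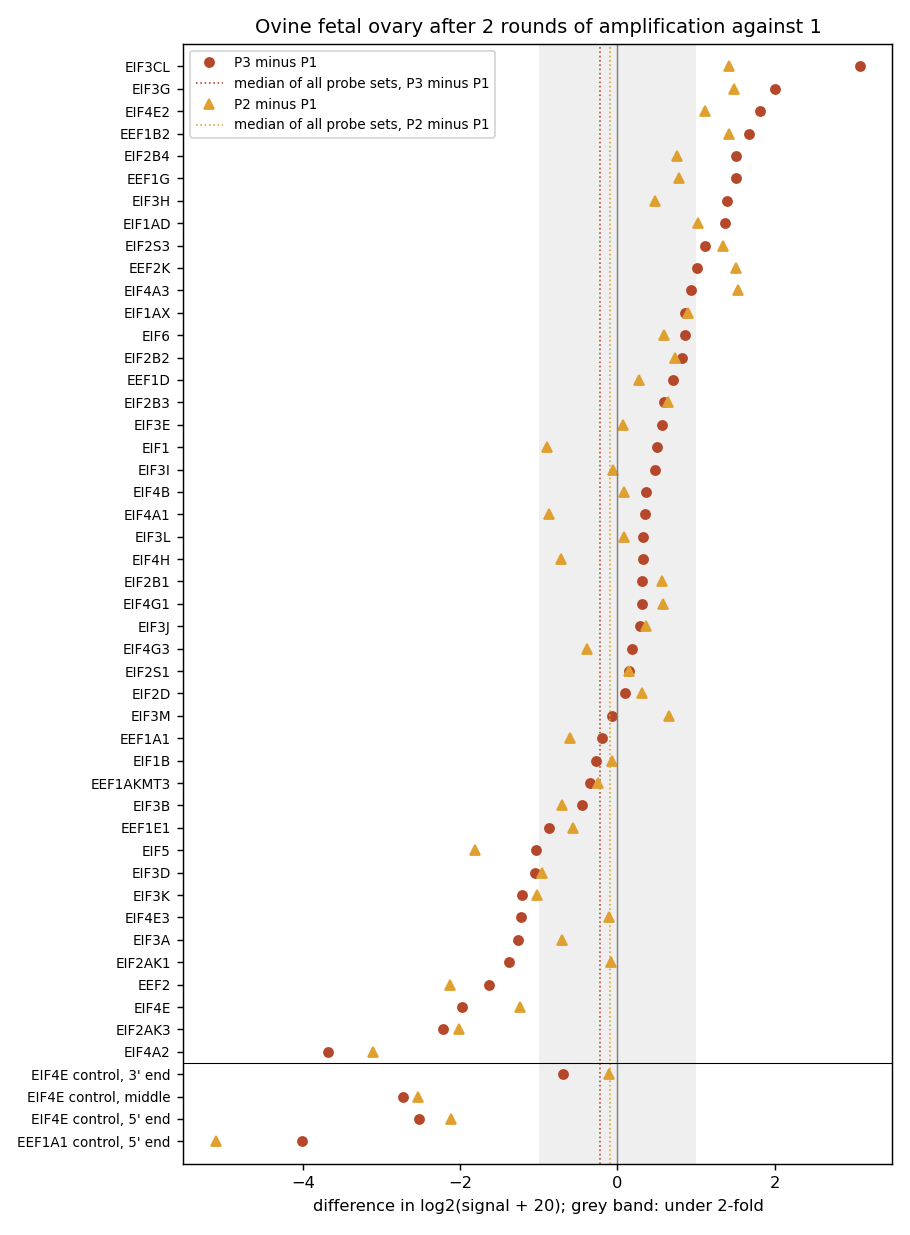
Each row is a factor detected under P3 or P1, ordered by its P3 minus P1 difference in log2(signal + 20), and the rows under the line are control probe sets of EEF1A1 and EIF4E. Circles are P3 minus P1, triangles P2 minus P1, dotted lines the medians of all probe sets at -0.22 and -0.09, and the grey band marks differences under 2-fold. The factors run from -3.68 for EIF4A2 to 3.09 for EIF3CL, and the 5′ control of EEF1A1 lies at -4.01 and -5.11.

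Ovine and bovine fetal ovary, both labelled by P1, were compared to gauge how sheep RNA reads on a cattle array. Species and fetal age cannot be told apart, and each has 1 array. Of 48 factors, 3 were at least 2-fold higher with ovine RNA and 5 at least 2-fold lower by their measured signals, against 12.3% and 20.5% of all probe sets. The 5 include EIF2A and EIF2AK2, whose member probe sets were undetected with ovine RNA under P1. With signals under the detection limit set to it, 3 factors were higher and 3 lower, against 10.5% and 14.8%. The measured signals of the other 40 differed by less than 2-fold, and the median was 0.10 over the factors and -0.04 over all probe sets.

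EIF4E2 gave 317 with ovine and 115 with bovine RNA (2.49-fold higher), EIF6 gave 989 with ovine and 409 with bovine RNA (2.35-fold higher) and EIF3K gave 2534 with ovine and 1181 with bovine RNA (2.13-fold higher). EIF3B gave 104 with ovine and 303 with bovine RNA (2.61-fold lower), and EIF4A3 gave 152 with ovine and 370 with bovine RNA (2.27-fold lower). The member probe sets of EEF2K, EIF2A and EIF2AK2 were detected under P1 with bovine RNA alone. EEF2K gave 31.8 with ovine RNA, just under the limit of 32.1, and 234 with bovine RNA, at least 4.88-fold lower. EIF2A gave 16.7 with ovine and 79.5 with bovine RNA, at least 1.91-fold lower, and EIF2AK2 gave 3.90 with ovine and 35.4 with bovine RNA, at least 1.06-fold lower. Second probe sets of EEF2K (64.5 ovine, 95.0 bovine) and EIF2AK2 (37.6 ovine, 35.3 bovine) were detected with both.

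EEF1A1 showed how far probe sets of a single gene can part between species. The member probe set gave 14555 with ovine and 14360 with bovine RNA. The other EEF1A1 probe set gave 84.9 with ovine and 3010 with bovine RNA, a 28.9-fold difference. The 3′ control gave 67.3 with ovine and 2999 with bovine RNA and the middle control 73.9 with ovine and 1140 with bovine RNA, while the 5′ control gave 13731 with ovine and 13733 with bovine RNA. The 3′ and middle controls and the second probe set were also detected on none of the captured arrays, where the member probe set was at 8180 to 13903. For EIF4E the 3′ control was lower with ovine RNA by 2.13, and the 5′ and middle controls were higher by 1.18 and 1.47.

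**Figure D5:**
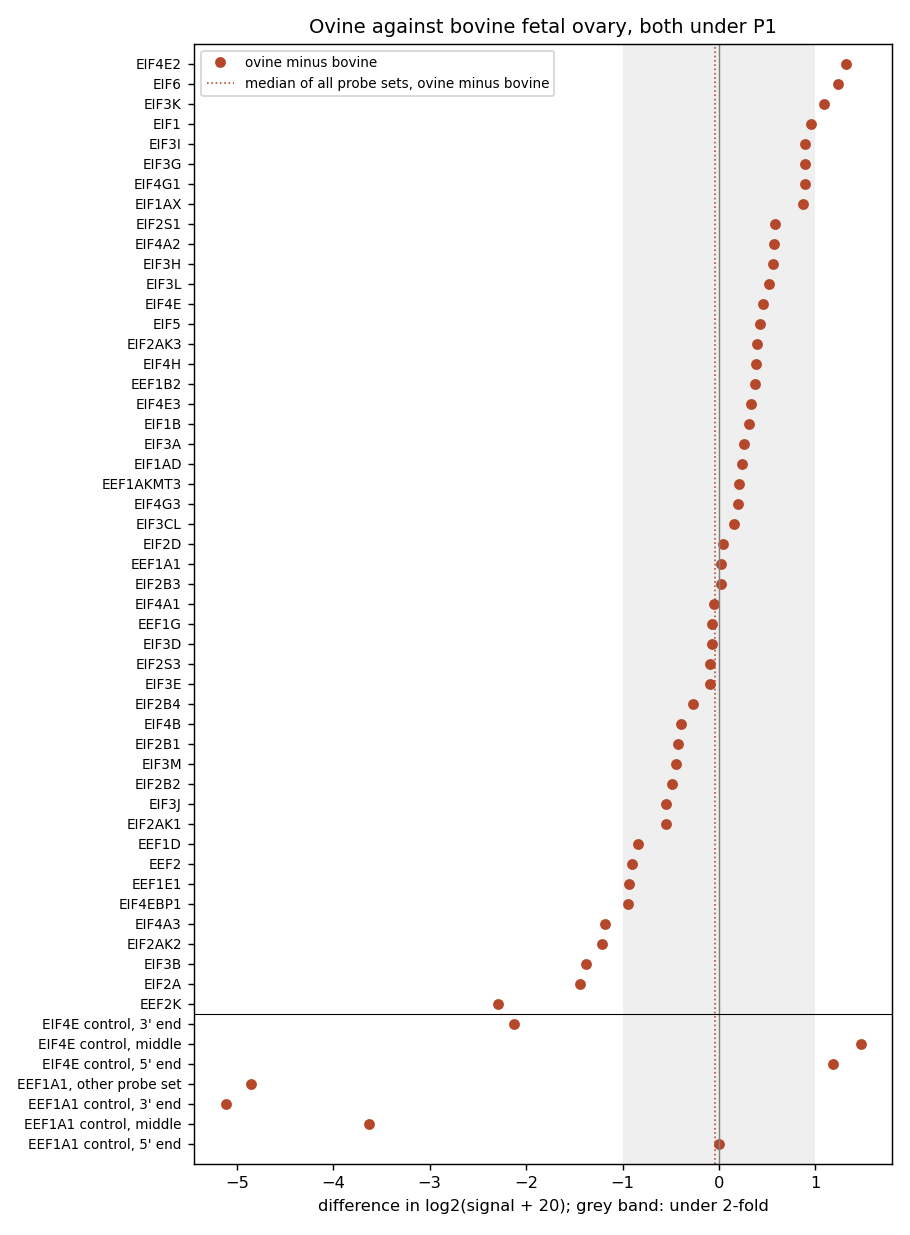
Each row is a factor detected with ovine or bovine RNA under P1, ordered by the ovine minus bovine difference in log2(signal + 20), with the other EEF1A1 probe set and the control probe sets of EEF1A1 and EIF4E under the line. The dotted line is the median of all probe sets at -0.04 and the grey band marks differences under 2-fold. 40 of 48 factors lie within the band, while 3 of the 4 further EEF1A1 probe sets lie between -5.11 and -3.63.

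Genes that work beside the factors were read from 6 lists. None of their genes passed the limma test between oocytes and GC or between secondary and primordial follicles. Over all probe sets 17.7% were higher and 17.1% lower in oocytes at all 3 stages. All oocyte signals lay above all GC signals in 7.28% of them and below in 7.71%. Of the poly(A) and cap partners 7 of 16 were on the array and 6 were detected, of which PAIP1 and DHX29 were higher in oocytes at all 3 stages and PAIP2, which holds the poly(A)-binding protein off the mRNA, lower. Of the mTOR and MNK genes 9 of 12 were on the array and 7 detected. Of these, RPS6KB1 and MLST8 were higher in oocytes at all 3 stages and RHEB was lower (-0.20 ± 0.30). In RPS6KB1, the kinase of ribosomal protein S6, the signals were 146, 108 and 218 in PDO, PMO and SECO, against 85.4, 36.5 and 37.5 in PDG, PMG and SECG, with no overlap and a difference of 1.29 ± 0.36 (adjusted p = 0.406), and it was detected on 1 of the GC arrays. MLST8, a subunit of the mTOR complexes, was detected on 2 oocyte arrays and 0 GC arrays, at 52.7, 63.1 and 78.6 in PDO, PMO and SECO, against 34.3, 34.0 and 34.8 in PDG, PMG and SECG, and is given no fold.

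Of the termination and recycling genes 5 of 6 were on the array and detected, and GSPT1, the release factor eRF3a, was above in all oocytes at 387, 388 and 827 in PDO, PMO and SECO, against 268, 285 and 379 in PDG, PMG and SECG (0.67 ± 0.32). Of the genes for factor modification 7 of 10 were on the array and 6 detected, and DHPS, which starts the hypusine modification of eIF5A, was above in all oocytes (0.55 ± 0.31). The mitochondrial factors had 8 of 9 genes on the array and 7 detected, with a median of 0.41. TUFM, TSFM (detected on 1 oocyte array alone) and MTRF1L were higher in oocytes at all 3 stages, and 0 were lower. The shares of all probe sets were 17.7% and 17.1%. Of the stress response genes 6 of 8 were on the array and 5 detected, with 0 higher and IMPACT lower at all 3 stages.

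A gene's probe sets can be compared where at least 2 were detected on captured arrays. This held for 7 factors, and in 6 of them the oocyte minus GC means had the same sign. The exception was EIF4H, whose 3 probe sets ran from -0.01 to 0.78. In sheep, 63 protein-coding genes of the RefSeq annotation have symbols of the same form, and 49 of them had a member here. The other 14, among them EIF5A, EIF5B, EIF2S2, EIF3F, EIF4G2, EIF2AK4 and the oocyte cap-binding protein EIF4E1B, were not analysed here.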

How the data were processed

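The authors hybridised biotin-labelled RNA to the Affymetrix Bovine Genome Array and deposited MAS5 signal intensities on a linear scale, made with GCOS (versions not given in the sources used here). Every deposited array had a mean of 100 once the lowest and highest 2% of its 24128 probe sets were left out. No probe-level data were used here.

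Gene symbols came from the GEO platform annotation. Each gene was given by the probe set with the highest mean log2(signal + 20) over the 6 captured arrays, without the 112 controls and without 2 probe sets of several symbols. Detection was set by rank. On each array the brightest probe sets were taken as detected, in a share equal to the present calls listed for it in a supplement of the paper. Captured arrays were fitted with limma 3.58.1 in R 4.3.3 (stage and compartment, 11642 probe sets detected on at least 1 array, 2 residual and 5.43 prior degrees of freedom, Benjamini-Hochberg, threshold 0.05). The script was tested on simulated data. Whole ovaries were compared by differences of log2(signal + 20) between single arrays, over probe sets detected on either, and called at 2-fold. The constant understates changes of dim genes. A gene detected on no array of a side and on every array of the other is given a bound, its fold against the detection limit, and no fold where the brighter side was detected only in part. Precision is limited by the number of arrays.

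Members, classes and lists were chosen with earlier results of these data known. Factors were named from a fixed list of main factors, when separated between compartments, or when among the largest differences of a comparison. The other list genes in the text, RPS6KB1 and GSPT1 among them, were chosen after their values were seen. Alternatives were added constants of 1 and 50, quantile normalization, detection by signals of 50 and 100, no filter, detection on 3 arrays, an intensity trend, a model without the other factor, the mean over probe sets, and leaving out each stage. Leaving out SECO, and setting signals under the detection limit to that limit, were chosen after seeing the data. Figures were drawn with Python 3.11.15 and matplotlib 3.10.9.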

Additional observations from a re-analysis of the deposited data

Results flagged for a closer look

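The stage difference had opposite signs in oocytes and GC for 13 factors, and in 2 of these it was at least 0.5 on the log2 scale in each compartment. EEF1E1 differed between secondary and primordial follicles by 1.46 in oocytes and by -0.75 in GC. EIF5 differed by 0.69 in oocytes and by -0.62 in GC. A second EIF5 probe set, detected on 5 captured arrays, had the reverse signs. It gave 134 in PDO and 43.0 in SECO, and 61.1 in PDG and 67.8 in SECG. Each value rests on 1 array a side, and the difference between the compartments was not tested.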

How the results depend on the processing

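No factor was called between oocytes and GC under any alternative run. Between secondary and primordial follicles 2 factors, EIF4G1 and EIF4H, were called with a constant of 50 (37 of 11642 probe sets in all) and 2, the same genes, with an intensity trend (67 in all), and 0 under the other alternatives. Leaving out 1 stage gave 18 to 21 factors higher and 9 to 13 lower in oocytes at the remaining stages, and 11 to 16 wholly above and 5 to 11 wholly below the GC arrays, with the highest count wholly above without the primordial stage and the highest counts lower or wholly below without the secondary stage. Factors wholly below GC numbered 3 with the mean over probe sets and 8 without SECO. Factors at least 2-fold lower with ovine than bovine RNA numbered 3 with a constant of 50, 3 with detection at a signal of 100, 3 with the mean over probe sets and 3 with signals under the detection limit set to it. Factors below the whole ovary on all 6 captured arrays numbered 11 with quantile normalization, for which the share of all probe sets was not worked out. The cause of these shifts was not tested. The other counts stayed within 1.5 times their values. Among the factors checked, which were those well detected and separated or among the largest differences of a comparison, no difference changed sign. Oocyte minus GC differences of factors with mixed signs were not checked. EIF1AX, for example, differed by -0.38, -0.41 and 1.12 in primordial, primary and secondary follicles. Only 3 arrays a compartment and 1 a whole ovary limit the precision. Oocytes and GC were compared within stage, as stage was a term of the model, and 0 factors were called without it.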
